A study of Mus musculus with 8 samples.

Results

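The windows described here lie in Trim71 and Zfp704, the genes that held the largest gains of DNA methylation when control embryonic stem cells (ESCs) differentiated. They were picked from the comparison of differentiated with undifferentiated control cells, so the values of that comparison describe the choice and are given with no test. A window belonged to a gene when its centre lay in the gene body or within 5 kb of it. By that rule 25 of the 54235 windows listed in any of the 4 comparisons were taken, 15 in Trim71 and 10 in Zfp704. Windows were 250 bp long and tiled with overlap, so that windows listed side by side shared reads and were not independent of each other.

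Methylation was measured by bisulfite sequencing of captured DNA (SureSelectXT Methyl-Seq) in mouse E14Tg2a cells, an ESC line. There were 8 samples in 4 groups of 2. Cells received a negative control siRNA (CTR KD) or siRNAs against YAP (YAP KD), the transcriptional coactivator of the Hippo pathway, and were collected undifferentiated (T0) or after 4 days as serum-free embryoid bodies (T4), a culture that leads toward neuroectoderm. The silencing was transient and YAP was described as restored in the course of differentiation, so the YAP KD T4 group holds cells that had been depleted of YAP before. All groups come from 1 cell line. The tables give, for each window and comparison of groups, the difference in methylation in percentage points (below, points) with the p-value and q-value of methylKit. Values for single samples, methylation levels and read depths are not part of them, so the spread between replicates cannot be given and each q compares these libraries alone. The cell type label could not be checked against marker genes, since the tables hold no expression. In bulk DNA a change within each cell and a change in the mix of cells cannot be told apart.

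CpG methylation is written de novo by Dnmt3a and Dnmt3b, with Dnmt3l as an accessory factor, as ESCs leave the naive state. Methylation at CpG-rich start sites usually goes with silencing, whereas methylation inside gene bodies is common in genes that are transcribed. Trim71 encodes an RNA-binding protein of the TRIM-NHL family, the mouse counterpart of the Caenorhabditis elegans heterochronic gene lin-41. It is abundant in ESCs, represses target mRNAs, is itself a target of the let-7 microRNA and is needed for closure of the mouse neural tube. Zfp704 encodes a zinc finger protein whose human counterpart, ZNF704, has been described as a transcriptional repressor.

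Both genes lie on the minus strand of the mouse genome (mm9, NCBIM37). Trim71 spans chr9:114420393-114473487 with 4 exons and Zfp704 spans chr3:9427011-9610085 with 9 exons in GENCODE. The sequences shown first are the window with the largest gain in each gene and the window of Zfp704 with the largest loss. All 3 are written 5′ to 3′ on the plus strand, with the CpG dinucleotides, where methylation was read, in capitals. The Trim71 window lies in the coding part of exon 4 and holds 16 CpGs. The Zfp704 windows lie in intron 1, with 7 CpGs, and in intron 5, with 16 CpGs.
Trim71 exon 4, chr9:114422001-114422250: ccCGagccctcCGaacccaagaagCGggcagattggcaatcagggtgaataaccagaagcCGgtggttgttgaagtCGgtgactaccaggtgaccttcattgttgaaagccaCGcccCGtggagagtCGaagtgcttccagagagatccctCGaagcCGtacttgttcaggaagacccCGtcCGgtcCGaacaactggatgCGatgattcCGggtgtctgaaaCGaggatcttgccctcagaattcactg
Zfp704 intron 1, chr3:9603376-9603625: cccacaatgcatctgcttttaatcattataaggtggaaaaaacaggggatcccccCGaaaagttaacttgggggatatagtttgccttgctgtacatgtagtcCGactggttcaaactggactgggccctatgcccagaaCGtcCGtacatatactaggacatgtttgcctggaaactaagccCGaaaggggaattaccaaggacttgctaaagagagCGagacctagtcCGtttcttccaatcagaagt
Zfp704 intron 5, chr3:9450751-9451000: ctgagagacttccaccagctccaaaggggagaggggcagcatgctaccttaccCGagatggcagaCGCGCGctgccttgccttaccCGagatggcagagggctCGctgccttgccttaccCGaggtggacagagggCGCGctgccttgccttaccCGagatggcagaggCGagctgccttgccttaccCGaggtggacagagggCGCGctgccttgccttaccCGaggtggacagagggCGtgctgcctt

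A window was called when q was at or below 0.05 and the difference was over 10 points, cutoffs like those in the study's figure legend. The study's text states its counts of differentially methylated regions at the q cutoff alone. In CTR KD differentiation (T4 minus T0), 12 member windows were called higher and 2 lower of the 24 listed. Of all windows in that table, 0.958% were called higher and 2.21% lower, and nothing is read from the members' counts there because this comparison chose the genes. In YAP KD differentiation, whose libraries took no part in the choice, 11 of the 24 listed windows were called higher and 2 lower, against 0.505% higher and 3.35% lower over that whole table. The direct comparison of YAP KD with CTR KD at T0 called 0 of 25 member windows, against 0.0676% higher and 0.019% lower in the table. At methylKit's q alone 1 of the 25 windows passed. At T4 it called 3 of the 23 listed windows lower, all in Trim71, and 0 higher, against 0.292% and 0.028% in the table. The last 2 comparisons share the CTR KD T0 or the CTR KD T4 libraries with the comparison that chose the genes.

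**Figure D1:**
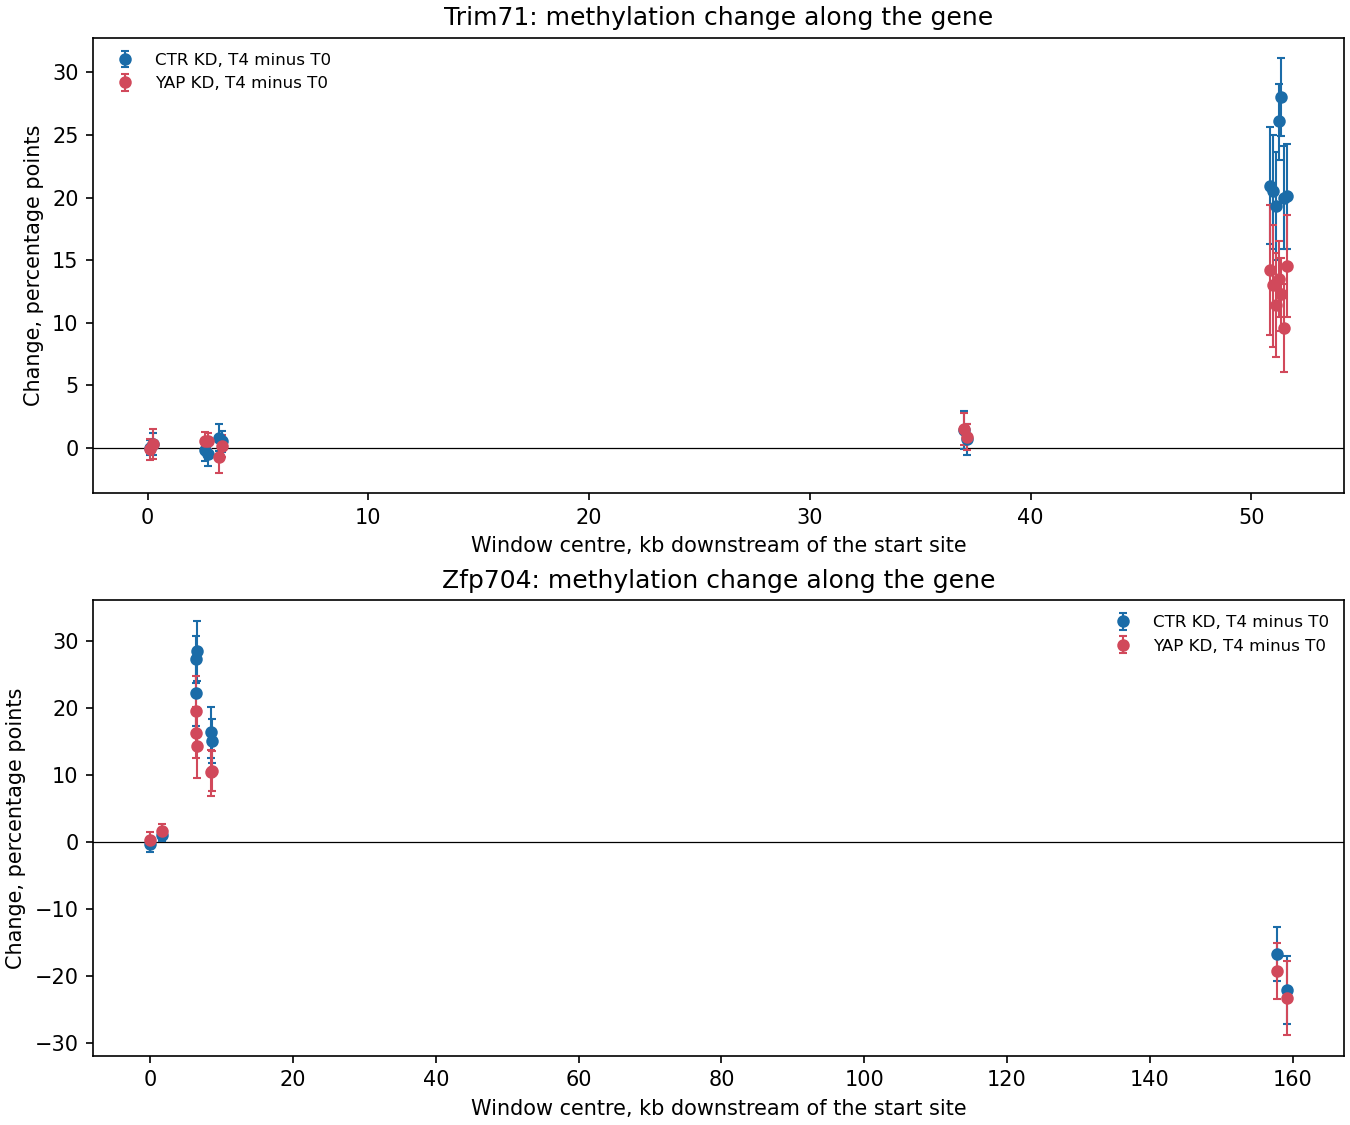
Change in methylation (T4 minus T0, percentage points) in CTR KD (blue) and YAP KD (red) cells against the distance of each window's centre from the start site, for Trim71 above and Zfp704 below. Points are windows and bars are 95% intervals derived from the p-values; the gains lie in the last exon of Trim71 and in intron 1 of Zfp704, while the start sites stay near 0 and intron 5 of Zfp704 changed by -23.3 to -16.7 points.

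In Trim71 the gain was a block of 7 consecutive windows, chr9:114421751-114422750, 1000 bp in exon 4. The window centres lie 50861 to 51611 bp downstream of the start site. The block covers codons 527 to 855 of the 855 codons of the gene, the C-terminal part of the protein in which the RNA-binding NHL repeats lie. In CTR KD cells all 7 windows gained, by 19.3 to 28.0 points with a median of 20.5. In YAP KD cells they gained 9.57 to 14.5 points with a median of 13.0, and the q-values of all 7 were under 0.05. The window at 114421876 was not called because its YAP KD gain, 9.57 points (methylKit q = 1.68e-06), was under the minimum of 10 points. The smallest CTR KD gain of the block was above the largest YAP KD gain. Because the gene was picked for its CTR KD gain and the windows share reads, this separation is a description alone.

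The peak of the block, the window shown above at chr9:114422001-114422250 (codons 694 to 777), gained 28.0 points in CTR KD cells, with a standard error (SE) of 1.59 derived from the authors' p-value and a 95% interval of 24.9 to 31.1. Among the 46579 windows of that table it had the second rank, which is how it was chosen. In YAP KD cells the same window gained 12.3 points (SE 1.50, 95% interval 9.36 to 15.2, methylKit q = 2.15e-14) and had rank 108 of 42770. At T0 the YAP KD and CTR KD cells differed there by 1.77 points (SE 0.998, 95% interval -0.184 to 3.73, q = 0.525). At T4 YAP KD cells were lower (difference -13.9 points, SE 2.08, 95% interval -18.0 to -9.84, q = 5.61e-08), the rank of 26 from the lowest of 42803 windows. Undifferentiated YAP KD cells were thus not shown to differ from controls at this window. The T4 difference uses the CTR KD T4 libraries whose gain chose the window. That choice favours a negative T4 value, so its q is no separate evidence.

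The other windows of the block also gained less in YAP KD than in CTR KD cells, with smaller differences at T4 where listed. The next window toward the start site, at 114422126, gained 26.1 points in CTR KD and 13.5 points in YAP KD cells (q = 1.35e-16). Its T4 difference was -10.2 points (SE 2.06, q = 0.00034), and its T0 difference was 2.33 points (q = 0.365). The window on the other side, at 114421876, differed by -12.5 points at T4 (SE 2.52, q = 0.00034), while its T0 difference was -2.10 points (q = 0.606). These 3 neighbouring windows, which overlap each other, made up all the T4 calls. Toward the edges of the block the T4 differences were -5.90 points at 114421751 (q = 0.312), -4.58 points at 114422376 (q = 0.571) and -3.41 points at 114422501 (q = 0.702), the window with the highest T0 difference of the gene (2.67 points, q = 0.643). The window at 114422251 was not listed at T4. It gained 19.3 points in CTR KD and 11.4 points in YAP KD cells.

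The YAP KD gain of each window can be given as a share of its CTR KD gain. The shares carry no error, and whether they change along the exon was not tested. At the 5′ end of the block, codons 527 to 610, the share was 67.8%. It went through 63.3%, 59.3% and 51.8% to 44.0% at codons 694 to 777, the window chosen for its large CTR KD gain. It was 47.8% in the window after that and 72.2% at the 3′ end, where the YAP KD gain had its highest value in the gene, 14.5 points (q = 9e-11). Subtracting the CTR KD from the YAP KD change gave -15.7 points at the peak (SE 2.19, 95% interval -20.0 to -11.4) and -6.75 points (SE 3.56, 95% interval -13.7 to 0.226) at the 5′ end. These differences contain the CTR KD change that chose the gene and are a description, with no test.

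In the other listed windows of Trim71, all in exon 1 or intron 1, methylation moved little. The rest of the gene had no listed window. The 8 other windows comprised 2 at the start site, 4 in intron 1 at 2611 to 3361 bp and 2 in the same intron at 36986 and 37111 bp. Their differences stayed between -1.15 and 1.52 points over all 4 comparisons, and 0 of them passed methylKit's q of 0.05 in any. The start-site window at 114473251, in the 5′ untranslated part of exon 1 with 24 CpGs, differed by 0.0413 points in CTR KD differentiation (95% interval -0.575 to 0.658) and by -0.105 points in YAP KD differentiation (95% interval -0.971 to 0.761). At T0 and T4 its knockdown differences were 0.564 and 0.418 points. The lowest differentiation differences of the gene were -0.497 points at 114470626 in CTR KD and -0.719 points at 114470126 in YAP KD cells, and its highest T4 difference was 0.611 points at 114473126. The gain of Trim71 was thus recorded in the coding end of the gene, and not at its start site or in the listed parts of intron 1.

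In Zfp704 the gains lay in intron 1 in a pair of blocks. The block nearer the start site, chr3:9603376-9603875, held 3 windows at 6334 to 6584 bp and gained 22.3 to 28.5 points in CTR KD cells. The farther block, chr3:9601376-9601750, held 2 windows at 8459 and 8584 bp and gained 15.1 and 16.4 points. In YAP KD cells the first block gained 14.3 to 19.5 points and the second 10.4 and 10.6 points, and all 5 windows were called. The order of the blocks was the same in both differentiations, with each window of the nearer block above both windows of the farther one.

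The window at chr3:9603376-9603625, shown above, had the largest gain of all windows in CTR KD differentiation, 28.5 points (SE 2.25, 95% interval 24.1 to 33.0). In YAP KD cells it gained 14.3 points (SE 2.43, 95% interval 9.53 to 19.0, q = 1.07e-07). At T0 it was 8.07 points higher in YAP KD than in CTR KD cells (SE 1.89, 95% interval 4.36 to 11.8, q = 0.0127), the 1 member window that passed methylKit's q at T0 and under the minimum of 10 points. At T4 it differed by -6.18 points (SE 2.71, q = 0.301). Here the smaller YAP KD gain thus came with a higher starting value as well as a lower value at T4, and the T4 difference did not pass the test. Both knockdown differences share control libraries with the comparison that chose the window, so neither is separate evidence.

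The next window, at 9603501, gained 27.3 points in CTR KD and 16.3 points in YAP KD cells (q = 9.07e-16). The knockdowns differed there by 3.77 points before differentiation (q = 0.235) and by -7.19 points after it (q = 0.0746). The third, at 9603626, gained 22.3 points in CTR KD and 19.5 points in YAP KD cells (SE 2.67, q = 1.38e-11), rank 14 of the YAP KD table and the largest YAP KD gain of either gene. Its YAP KD gain was 87.8% of the CTR KD gain, and the difference of the changes, -2.72 points (SE 3.70, 95% interval -9.97 to 4.53), was the smallest of the 12 gained windows. Its T0 difference, -0.785 points (q = 0.883), was the lowest of the gene. Within 500 bp the YAP KD share thus ran from 50.1% to 87.8%, a range that was not tested. In the farther block the knockdown differences at T0 were 0.00509 and 0.0291 points, and at T4 they were -4.23 and -5.98 points (q = 0.421 and 0.241).

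**Figure D2:**
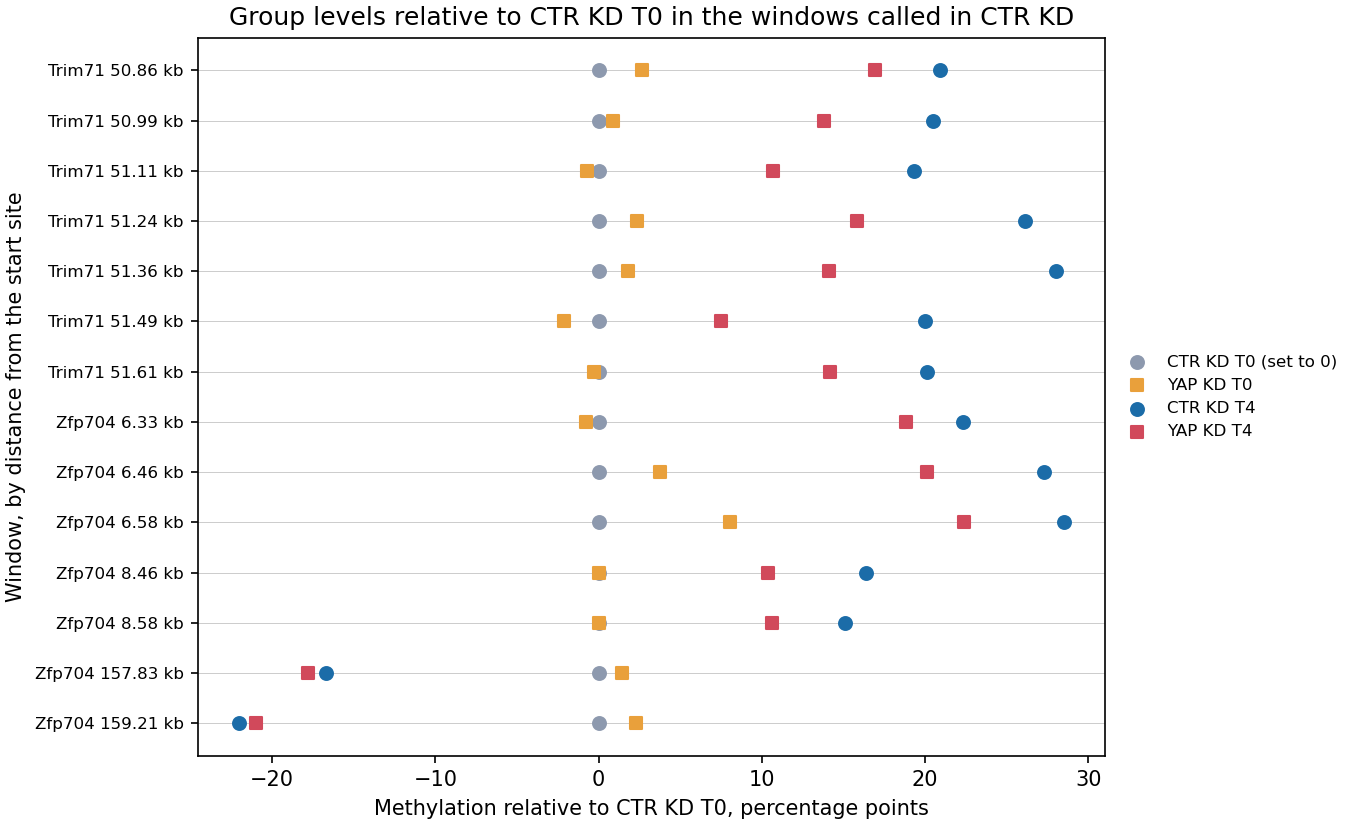
Methylation of the 4 groups relative to CTR KD T0, which is set to 0 (percentage points), in the 14 windows called in CTR KD differentiation, ordered by gene and by distance from the start site; circles are CTR KD and squares YAP KD groups. In all 12 gained windows YAP KD T4 (red) lies between CTR KD T0 and CTR KD T4 (blue), whereas in the 2 lost windows of Zfp704 both T4 groups lie together.

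The far end of Zfp704 went the other way. The window at chr3:9450751-9451000 in intron 5 lost methylation in CTR KD cells (-22.0 points, SE 2.56) and in YAP KD cells (-23.3 points, SE 2.82, q = 1.11e-14). The window at chr3:9452126-9452375, which covers exon 5 with 101 coding bases (codons 340 to 373) and has its centre in intron 5, differed by -16.7 points in CTR KD (SE 2.03) and by -19.2 points in YAP KD cells (SE 2.14, q = 3.89e-17). Knockdown differences at these windows were 2.29 and 1.44 points at T0 and 1.70 and -1.02 points at T4, with q-values of 0.808 and above. The differences of the changes were -1.26 points (95% interval -8.72 to 6.20) and -2.50 points (95% interval -8.28 to 3.28). The losses were thus called in both differentiations, and the intervals still allow either to differ by several points.

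The 3 remaining windows of Zfp704 lay near the start site. The window over the start site at 9610001, with 25 CpGs, differed by -0.335 points in CTR KD and 0.290 points in YAP KD differentiation, and by -0.203 and 0.222 points between the knockdowns at T0 and T4. A window of intron 1 centred 1584 bp downstream of the start site gained 1.73 points in YAP KD cells (SE 0.501, q = 0.00462) and 1.11 points in CTR KD cells (SE 0.493, q = 0.105). The window farthest upstream, 4916 bp from the gene and just inside the 5 kb margin, was listed at T0 alone, with a difference of 0.376 points. Outside the margin the nearest listed window lay 92635 bp from the gene and lost methylation in both differentiations (-14.9 points in CTR KD, -19.8 points in YAP KD). For Trim71 no window lay in the margin upstream or downstream, and the nearest outside, at 19514 bp, differed by -0.249 points in CTR KD cells.

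Over the 12 gained windows of both genes the YAP KD gain was smaller than the CTR KD gain in 12 of 12, with a median of 61.5% of it (range 44.0% to 87.8%). The differences of the changes ran from -15.7 to -2.72 points with a median of -7.68. The knockdown differences at T4 were negative in 11 of the 11 windows listed, and at T0 they were positive in 8 of 12 with a median of 0.453 points. Because the genes were picked for their CTR KD gain, the common direction is no separate evidence. The 360 other windows called higher in CTR KD cells and listed for YAP KD had a median YAP KD gain of 59.2% of the CTR KD gain. They were picked by the CTR KD call alone, whereas the members were picked as the largest gains. Their median CTR KD gain was 13 points, against 20.7 in the members' gained windows, so the sets were not matched. The 835 windows called lower outside the 2 genes had a median of 101%. The members' shares of their gain lie beside the first value, and the intron 5 losses of Zfp704 beside the second.

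**Figure D3:**
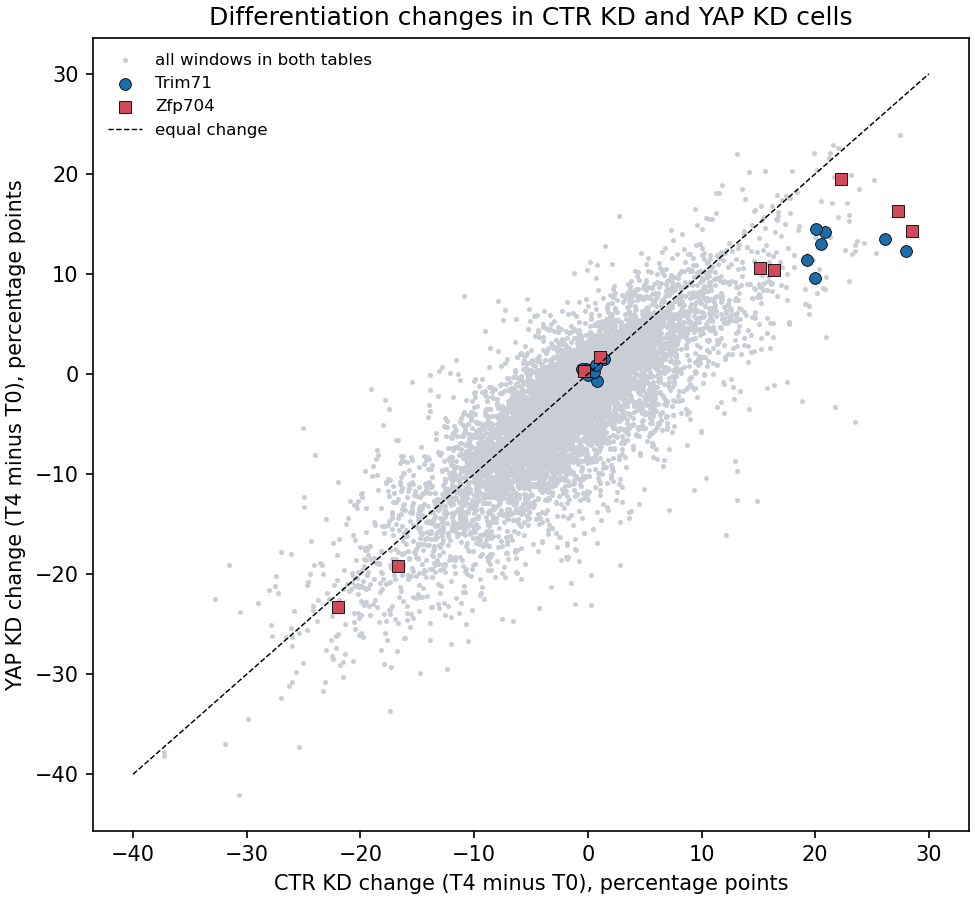
Change in YAP KD cells (vertical axis) against change in CTR KD cells (horizontal axis), both T4 minus T0 in percentage points, for all windows in both tables (grey), Trim71 (blue circles) and Zfp704 (red squares); the dashed line marks equal change. The 12 gained windows of the members lie below the line at CTR KD gains of 15.1 to 28.5 points, and the 2 lost windows of Zfp704 lie close to it.

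**Figure D4:**
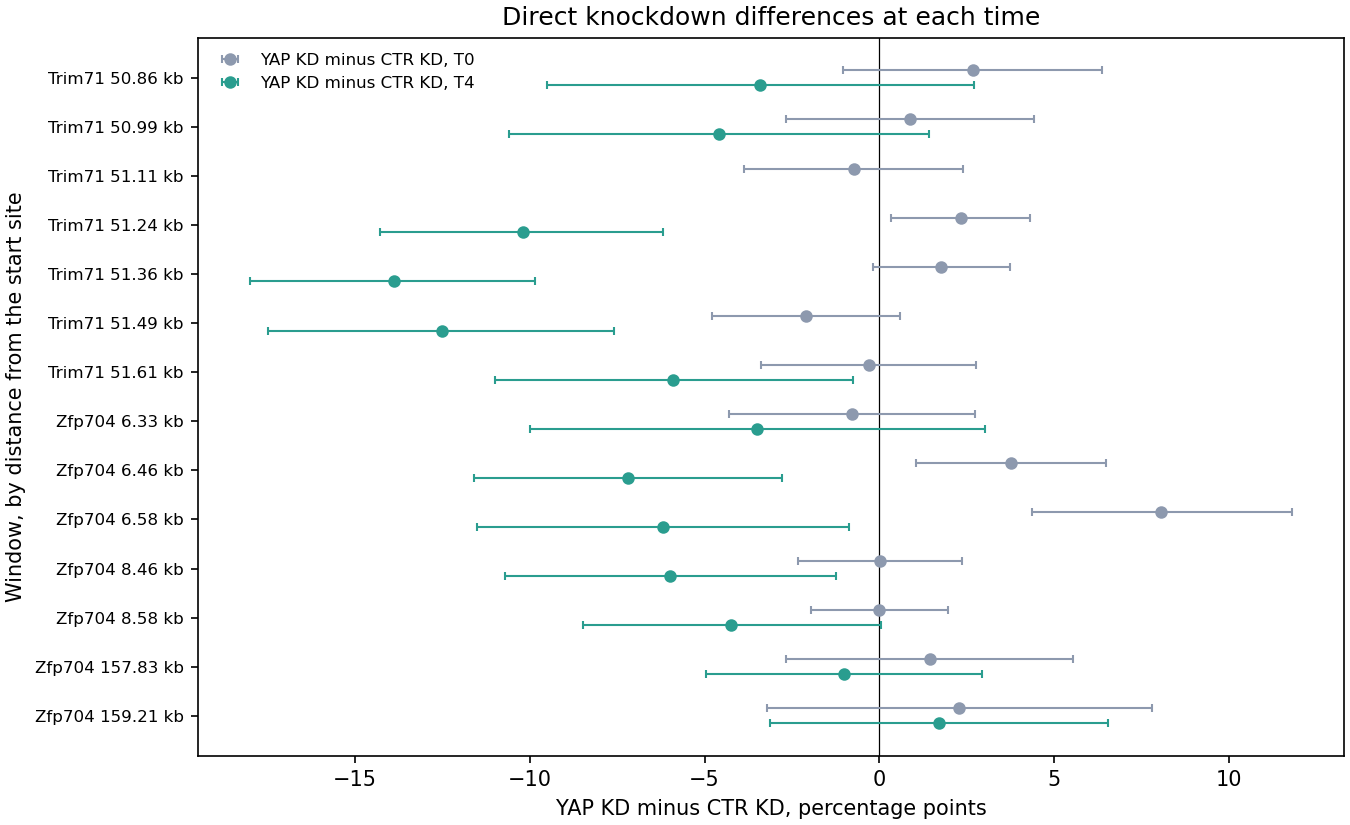
Difference between YAP KD and CTR KD cells (percentage points) at T0 (grey) and T4 (green) in the 14 windows called in CTR KD differentiation, with 95% intervals derived from the p-values. The 3 T4 calls are the Trim71 windows at -10.2, -13.9 and -12.5 points, and the highest T0 value is the Zfp704 window at 8.07 points.

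The levels themselves are not in the tables, but the differences bound them. A CTR KD gain of 28.0 points requires a CTR KD T0 level of at most 72.0% at the Trim71 window, and a gain of 28.5 points a level of at most 71.5% at the Zfp704 window. Set against CTR KD T0, the Trim71 window stood at 1.77 points in YAP KD T0, 14.1 points in YAP KD T4 and 28.0 points in CTR KD T4. The Zfp704 window stood at 8.07, 22.4 and 28.5 points in the same groups. In both windows YAP KD T4 cells thus stood between the undifferentiated and the differentiated controls. The distance to the differentiated control was called in Trim71 but not in Zfp704. Both windows were chosen for a CTR KD gain that uses the same CTR KD T4 libraries, so neither outcome is separate evidence. Whether the genes differ in this distance was not tested.

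The gained windows of Trim71 held 11 to 16 CpGs and those of Zfp704 5 to 10. Over all members the medians were 13 CpGs in Trim71 and 10.5 in Zfp704, against 16 over all windows and 11 over the 446 windows called higher in CTR KD differentiation. The motif GGAATG, the core of sites bound by TEAD proteins, through which YAP acts, was searched on both strands. It occurred in 0 of 15 Trim71 and 0 of 10 Zfp704 windows, and in 9.99% of all windows of this length. The absence says only that these letters are not in these windows.

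The Trim71 windows are single-copy, in that no 31-base stretch of them occurs elsewhere in the genome. In Zfp704 each gained block holds a stretch that is a copy of one in the other, in opposite orientation. The first copy is 249 bp and the second 250 bp, 246 of 249 aligned bases are identical (98.8%) with 1 gap, and 1841 bp lie between them. All 10 CpGs stand at the same places in both. They are shown for this likeness, the first on the plus strand and the second on the minus strand, with CpGs in capitals.
Zfp704 intron 1 copy far from the start, chr3:9601407-9601655, plus strand: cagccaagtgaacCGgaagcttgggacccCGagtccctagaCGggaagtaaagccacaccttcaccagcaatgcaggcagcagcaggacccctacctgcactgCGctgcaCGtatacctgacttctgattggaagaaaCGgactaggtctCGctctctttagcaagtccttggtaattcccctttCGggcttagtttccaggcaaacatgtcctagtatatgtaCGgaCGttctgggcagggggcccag
Zfp704 intron 1 copy near the start, chr3:9603497-9603746, minus strand: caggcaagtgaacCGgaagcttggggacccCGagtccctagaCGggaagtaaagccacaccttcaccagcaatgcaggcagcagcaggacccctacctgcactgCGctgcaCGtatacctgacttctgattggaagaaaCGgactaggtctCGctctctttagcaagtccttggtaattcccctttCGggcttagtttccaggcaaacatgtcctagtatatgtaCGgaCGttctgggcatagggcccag
Of the 31-base stretches in the windows, 85.0% have a second copy at 9603501, 75.9% at 9601376, 52.3% at 9601501, 40.5% at 9603376 and 30.9% at 9603626. Reads from the copies can be hard to place, and their part in the values was not tested. The lost windows of Zfp704 hold short tandem repeats, visible in the intron 5 sequence shown early on, where ccttgccttaccCGa occurs 5 times with a median spacing of 34 bp. In the exon 5 window the most frequent stretch of that length is accCGaggtggacag, 4 times with a median spacing of 35 bp. Of the 31-base stretches, 40.9% at 9450751 and 32.3% at 9452126 have a second copy, and some have 22 copies. All of these copies lie within 2 kb of the window, and none was found elsewhere in the genome. Reads of the lost windows can thus be hard to place within this local repeat, which was not tested.

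The genes around the members showed few changes. Of the annotated genes within 500 kb of Trim71, 11 of 17 had listed windows, and 0 genes were called in CTR KD differentiation. That was 0 of 51 windows, against 0.958% higher and 2.21% lower over the table. In YAP KD differentiation 1 gene was called lower, 4930520O04Rik (-11.5 points, methylKit q = 1.75e-06). That is 1 of 43 windows (2.33%) against 3.35% called lower over the table. Around Zfp704, 0 genes were called in any comparison, with 3 or 4 of 9 listed and 12 or 13 windows. The TRIM-NHL relatives of Trim71 (Trim2, Trim3, Trim32) had listed windows for 2 of 3 genes and 0 calls in 13 to 16 windows per comparison. Zfp395, a relative of Zfp704, had 0 calls in 3 to 5 windows. At most 3.35% of all windows were called in either direction of a comparison, so 0 calls in so few windows say little.

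Most genes of the LIN28 and let-7 pathway, in which Trim71 is a target, had no called window. Of 24 genes 20 had listed windows. In CTR KD differentiation 3 were called higher and 1 lower, 2.40% and 0.80% of their windows against 0.958% and 2.21% over the table. The median difference of their windows was 0.0587 points there, against -0.0725 over all windows. In that comparison Ago2, an effector of microRNA silencing, gained 11.0 points (q = 1.79e-06), Myc, a proliferation factor, 10.9 points (q = 4.33e-11) and its relative Mycn 10.1 points (q = 3.35e-17). Hmga2, a chromatin protein and let-7 target, lost methylation there (-13.6 points, q = 1.47e-05) and in YAP KD differentiation (-14.7 points, q = 4.44e-06). In YAP KD differentiation 0.813% of the windows of the list were called higher and 1.63% lower, against 0.505% and 3.35% over the table. There Myc gained 10.8 points (q = 4.39e-11), Mycn 6.07 points (q = 2.06e-10) and Ago2 4.41 points (q = 0.121). At T4, 2 of the 112 windows of the list (1.79%) were called lower in YAP KD than in CTR KD cells, against 0.292% over the table. Both lie in Drosha, the gene of the nuclease that begins microRNA processing. It is named here beyond the 4 genes of the naming rule, after its values were seen. The 2 windows differed by -10.8 points (q = 0.0148) and -10.4 points (q = 0.000799). The first of these windows was also called lower in YAP KD differentiation (-11.6 points, q = 0.00103), while it differed by 9.31 points in CTR KD differentiation (q = 0.00516) and by 10.4 points between the knockdowns at T0 (q = 0.0683). At T0 0 genes of the list were called. Of 8 mRNAs that TRIM71 is known to repress, 6 had listed windows, 2 were called lower in each differentiation and 0 between the knockdowns. The calls were 2 of 43 windows in CTR KD and 5 of 41 in YAP KD cells (4.65% and 12.2%), against 2.21% and 3.35% over the tables, and these windows overlap in part. Hoxa5, a homeobox gene among them, differed at 52155251 by -10.8 points in CTR KD (q = 3.14e-07) and -14.3 points in YAP KD cells (q = 3.49e-10). In YAP KD cells it was also called at 52155376 (-16.9 points, q = 2.37e-13) and 52152501 (-15.3 points, q = 4.9e-08). The CTR KD difference at 52155376 was -9.84 points (q = 1.18e-05), just under the minimum of 10 points. The window at 52152501 was not listed for CTR KD differentiation. Egr1 differed at 35022626 by -11.8 points in CTR KD (q = 7.45e-07) and -10.5 points in YAP KD cells (q = 5.54e-05). At 35022751 it was called in YAP KD cells (-16.6 points, q = 3.08e-15). There the CTR KD difference, -9.5 points (q = 9.17e-06), was also just under the minimum.

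By the distance over the 4 differences, the window most like the Trim71 peak window among 37957 windows listed in all comparisons was in Tra2b, a splicing factor gene, at 4.12 points. It gained 25.4 points in CTR KD and 12.1 points in YAP KD cells, and the knockdowns differed there by 3.07 points at T0 and -11.0 points at T4 (q = 0.00266). Rpl3, a ribosomal protein gene, and Ywhag, a 14-3-3 protein gene, followed at 5.74 points each. Nearest to the Zfp704 window were Kdm2b, a histone demethylase gene (7.09 points), Nedd4, a ubiquitin ligase gene (7.70 points), and Tra2b (7.95 points). Kdm2b gained 23.5 points in CTR KD and 12.9 points in YAP KD cells and differed by -6.89 points at T4 (q = 0.144). These windows were chosen for likeness to the members, and their values are a description.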

How the data were processed

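Capture bisulfite libraries of 8 samples, 2 per group, were processed by the authors with Trim Galore, Bismark, Bowtie2 and methylKit on mm9, as the submitters' processing notes name them with no versions. The authors deposited 4 tables, 1 per comparison of groups, which give each 250 bp window a p-value, a q-value and a difference in percent methylation (percentage points). The study left out positions of low coverage. These columns are the authors' own comparisons and were the data used; depth is unknown. Differentiation differences are T4 minus T0. Knockdown differences were read as YAP KD minus CTR KD, because the T4 minus T0 knockdown difference then equalled the YAP KD minus CTR KD differentiation difference within 0.5 points in 93.4% of 37980 windows (22.2% with the sign reversed). In the 23 members listed everywhere they differed by at most 2.06 points.

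The SE was taken as the size of the difference over the normal quantile that its two-sided p-value implies, and covers only the error in that p-value. It was checked on simulated read counts with large differences and no spread between replicates. The check does not cover small differences or replicate spread. Windows were placed on GENCODE M1 models of NCBIM37, from which the sequences were also read. Python 3.11.15, pandas 2.3.3, NumPy 2.4.6, SciPy 1.17.1 and matplotlib 3.10.9 were used. The members, gene lists and tests were chosen with earlier results of these data known. Windows named were those called in any comparison, those at the start sites and margins, the largest difference of each sign per comparison, the 3 genes nearest in pattern to each member and called genes of the lists, of which up to 4 per list. Alternatives were another q threshold, other minimum differences, non-overlapping windows, other margins, another route to the difference of changes and doubled SEs.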

Additional observations from a re-analysis of the deposited data

How the results depend on the processing

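Of 24 alternatives to the counts of called windows, 18 left the count within 1.5 times and 6 moved it. With non-overlapping windows alone, 12 in number, 7 windows were called in CTR KD differentiation (14 with all windows), 7 in YAP KD differentiation (13 with all) and 1 between the knockdowns at T4 (3 with all), since fewer windows were counted. With a minimum of 20 points 1 window was called in YAP KD differentiation and 0 between the knockdowns at T4. With no minimum difference 1 window was called at T0 (0 with it), the Zfp704 window with q = 0.0127. The differences of changes at the peak windows (-15.7 points in Trim71 and -14.3 points in Zfp704) come out the same from the knockdown tables by construction, since both routes combine the same 4 group values, and doubling their SEs gives 4.38 and 6.62 points. Neither bears on stability. No paired analysis was possible because the tables hold no values per replicate, and for the same reason leaving out each replicate was not run. Depth per window is unknown, so the precision rests on the authors' p-values.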
